A study of Mus musculus with 3 samples.

Results

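The pyruvate dehydrogenase complex, its kinases and its phosphatases were examined in mouse heart RNA as a set of 10 genes, all of which were found among the 19505 genes with a symbol on the arrays. Members were selected on their log2 values on the 3 arrays as seen in earlier work, and were then taken by name: the kinases Pdk1, Pdk2, Pdk3 and Pdk4, the phosphatases Pdp1 and Pdp2, and the subunit genes Pdha1, Pdhb, Dlat and Pdhx. Each had 1 probe that names a single gene, so a member's value is the value of that probe. The differences between arrays are therefore a description of these genes and carry no test.

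The complex sits in the mitochondrial matrix and turns pyruvate into acetyl-CoA, which joins glycolysis to the citric acid cycle. Kinases of the Pdk family phosphorylate its alpha subunit and switch it off, and phosphatases of the Pdp family remove the phosphate and switch it on again. In heart and skeletal muscle the kinase Pdk4 is known to be induced in fasting and by fatty acids through PPAR receptors, which spares glucose while fat is burned.

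Heart tissue was measured on 3 arrays, 1 array per group, from wild-type C57BL/6 mice that the labels give as male and 10 weeks old. With 12 weeks of treatment after the operation, this cannot be the age at sampling, and the study's methods give another starting age. The sham group had the aorta exposed and the silk taken away untied, the AAC group had abdominal aortic constriction, in which a tied thread narrows the aorta and raises the load on the left ventricle, and the AAC + DAPA group had AAC and then dapagliflozin (DAPA), an inhibitor of the glucose transporter SGLT2, given for 12 weeks with the drinking water, at 25 mg/kg daily. Per the study's methods the sham and AAC groups were given saline. The chamber sampled, the hour of sampling, and whether 1 mouse or several gave the RNA of an array are not given in the sources used here.

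Values are log2 expression as deposited, and a gene was called higher or lower from 1.5-fold, which is 0.585 on the log2 scale. Without replicate arrays no difference has a replicate check. The only measure of error in the data was the spread between probes of the same gene, in 55 genes with several probes, which gave an SD (the probe SD) of 0.31 (log2) for AAC minus sham, 0.26 for AAC + DAPA minus AAC and 0.19 for AAC + DAPA minus sham. These SDs hold no difference between animals. The AAC array serves in AAC vs. sham and in AAC + DAPA vs. AAC, so its error enters them with opposite sign. In bulk tissue, fewer cells of a type and less RNA per cell cannot be told apart.

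Before the members, the arrays were set against their labels. The cardiomyocyte genes were high on all 3, with log2 values of 19.09, 19.05 and 19.03 for Myh6, the heavy chain of adult mouse heart myosin, in sham, AAC and AAC + DAPA, and the 7 skeletal muscle markers lay between 3.54 and 5.66. Y-linked genes went against the sex label. Eif2s3y read 2.50, 11.71 and 2.72 in the same order, under the 5th percentile of the probes (3.02) on the arrays labelled sham and AAC + DAPA. In AAC vs. sham 24 of 32 Y-linked genes were up, beside 4.88% of all genes. In AAC + DAPA vs. AAC 26 of the 32 were down, beside 4.18%. This difference enters each comparison that uses the AAC array, for genes on any chromosome, and cannot be told apart from the treatments there. The AAC array also differed in other ways. Of the 3 measured macrophage markers of a list of 4, 2 were past 1.5-fold above sham, beside 4.88% of all genes. Among them was the chemokine receptor Ccr2 (6.62, 9.46 and 7.30 in sham, AAC and AAC + DAPA). The mean of the 3 measured macrophage markers was 6.88, 8.23 and 7.23. Alas2, the enzyme gene of haem synthesis in red blood cell precursors and the measured one of 4 red blood cell markers, read 7.63, 11.92 and 8.63, and so was also highest in AAC. Nppa, the atrial natriuretic peptide gene, which marks atrial cells and rises in loaded ventricles, was the one of 4 atrial markers past 1.5-fold and read 14.30, 17.83 and 19.37, the highest difference of all genes in AAC + DAPA vs. sham. The part of other cell types in the member values was not tested. Clock genes, which cycle over the day, set the sham array apart. In AAC vs. sham 8 of 14 were up and 3 down, beside 4.88% and 4.98% of all genes. In AAC + DAPA vs. sham 10 were up and 3 down, beside 3.22% and 3.38%. The clock genes also separated AAC + DAPA from AAC, with 5 up and 0 down in AAC + DAPA vs. AAC, beside 4.16% and 4.18% of all genes. AAC + DAPA vs. sham is the comparison that does not rest on the AAC array, and it is given for each member and for the lists with calls in it.

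Among the members, 1 gene differed by far more than the rest. Pdk4 in AAC lay 75.6-fold below sham, and AAC + DAPA lay 18.9-fold above AAC. In AAC the phosphatase gene Pdp1, which acts in the sense opposite to the kinases, stood above sham by 1.75-fold. The alpha subunit gene Pdha1, which encodes the target of the kinases, stood above it by 1.56-fold. In AAC vs. sham, 2 of the 10 members were up and 1 was down, beside 4.88% and 4.98% of all genes (9.86% in either direction). In AAC + DAPA vs. AAC, 1 member was up and 1 was down, beside 4.16% and 4.18% (8.34%). In AAC + DAPA vs. sham, 0 members were up and 1 was down, beside 3.22% and 3.38% (6.6%). The median difference over the members was 0.045, 0.00 and -0.04 (log2) in these comparisons, and over all genes it was 0.00 in each.

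**Figure D1:**
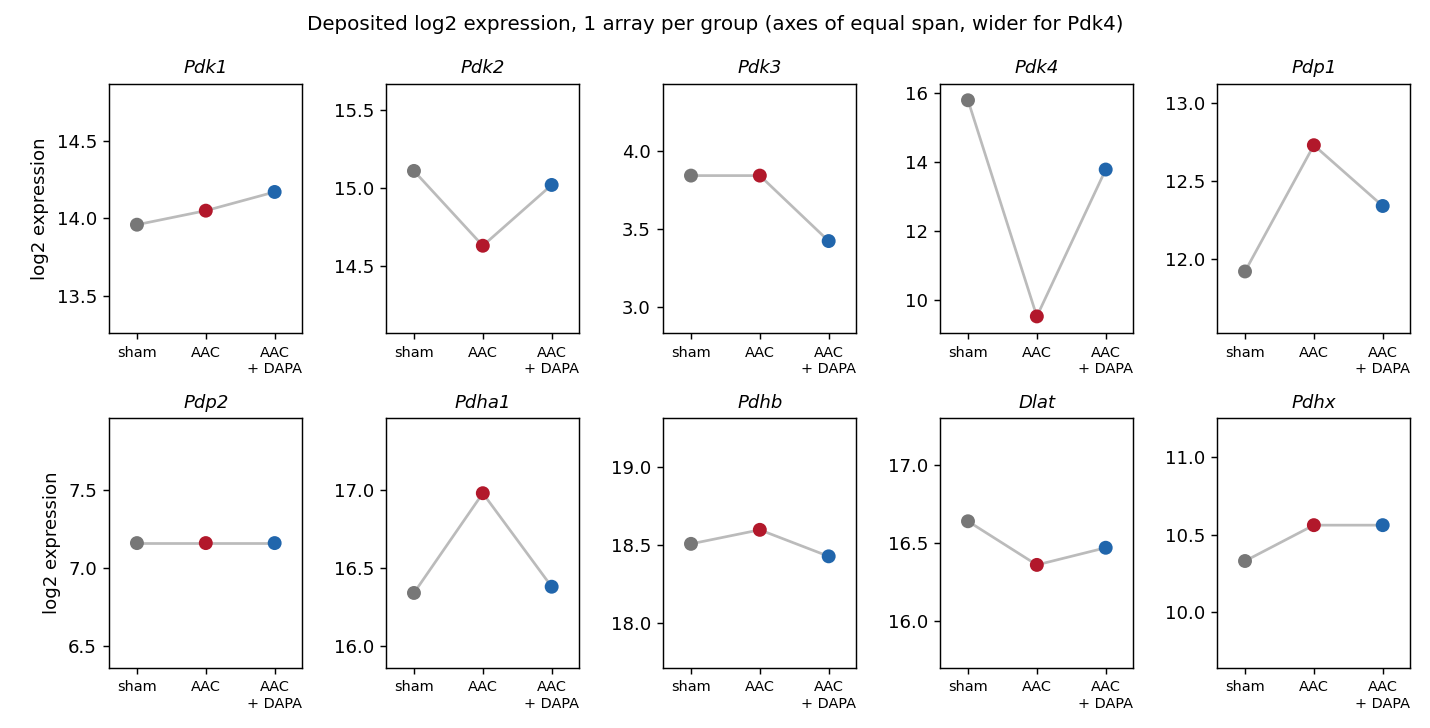
Deposited log2 expression of the 10 genes (vertical axes) on the sham, AAC and AAC + DAPA arrays (horizontal axes), 1 point per array and no error bar since each group has 1 array. The vertical axes span the same number of log2 units except that of Pdk4, which is wider: Pdk4 falls from 15.78 to 9.54 and stands at 13.78 in AAC + DAPA, while Pdp2 reads 7.16 on each array.

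Pdk4, the kinase isoform most tied to fat use, had log2 values of 15.78, 9.54 and 13.78 on the sham, AAC and AAC + DAPA arrays. The order was sham above AAC + DAPA above AAC, and every step was larger than the probe SD. Set against sham as 100%, its level was 1.32% in AAC and 25.0% in AAC + DAPA, so it lay 4.0-fold below sham on the comparison that leaves the AAC array out. Its difference between AAC and sham, -6.24, was the lowest of all 19505 genes, and the next was 2210407C18Rik at -5.68. Its difference between AAC + DAPA and AAC, 4.24, was the highest of all genes, just above the mitochondrial uncoupling protein gene Ucp3 at 4.13. The shared AAC array links these places. Between AAC + DAPA and sham Pdk4 ranked as the 20th lowest gene.

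Pdk2, the kinase with the widest tissue range, read 15.11, 14.63 and 15.02. Its order was that of Pdk4, on a far smaller scale, with -0.48 for AAC minus sham and 0.39 for AAC + DAPA minus AAC. Both differences stayed within 1.5-fold but were larger than the probe SD. Sham and AAC + DAPA did not differ beyond it, at -0.09 for AAC + DAPA minus sham.

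Pdk1, the kinase gene known as a target of the hypoxia factor HIF1, had its lowest value in sham and its highest in AAC + DAPA, with readings of 13.96, 14.05 and 14.17. It was the kinase gene with the narrowest range, 0.21, and neighbours in this order differed by less than the probe SD. Hif1a itself read 13.42, 13.42 and 13.39.

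Pdk3, an X-linked kinase gene, had the value 3.84 on the sham and AAC arrays and 3.42 on the third. These levels lie close to or under the 25th percentile of the probes on each array (3.81, 3.85 and 3.81 in the same order), so its difference of -0.42 is one between dim signals.

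The 250 bases before the start of Pdk4 and of Pdk2 are shown because these are the kinase genes that were lowest on the AAC array (RefSeq, GRCm38.p6, written 5′ to 3′ along the gene). Those of Pdha1 are shown as an example of the 3 members that were highest there, Pdp1, Pdha1 and Pdhb. They lie at chr6:5496279-5496528, minus strand (Pdk4), chr11:95041372-95041621, minus strand (Pdk2, the upstream window of a pair listed for this gene), and chrX:160138431-160138680, minus strand (Pdha1). Capitals mark a CCAAT box (CCAAT or ATTGG) or an E-box (CACGTG).
Pdk4: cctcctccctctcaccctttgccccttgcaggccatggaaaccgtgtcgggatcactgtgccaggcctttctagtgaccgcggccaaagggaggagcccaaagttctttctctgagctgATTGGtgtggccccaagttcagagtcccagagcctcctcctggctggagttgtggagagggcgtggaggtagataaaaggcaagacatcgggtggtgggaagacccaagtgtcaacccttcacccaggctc
Pdk2: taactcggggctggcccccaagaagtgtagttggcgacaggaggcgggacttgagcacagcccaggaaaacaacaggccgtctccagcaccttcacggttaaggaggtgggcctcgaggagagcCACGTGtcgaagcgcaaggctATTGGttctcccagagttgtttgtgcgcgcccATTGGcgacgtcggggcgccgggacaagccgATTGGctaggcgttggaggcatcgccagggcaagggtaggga
Pdha1: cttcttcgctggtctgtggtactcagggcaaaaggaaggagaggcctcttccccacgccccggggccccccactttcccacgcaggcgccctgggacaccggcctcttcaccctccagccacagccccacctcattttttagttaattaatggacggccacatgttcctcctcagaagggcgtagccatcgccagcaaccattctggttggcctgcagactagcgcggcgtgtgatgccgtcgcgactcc
Windows were found for 9 of the 10 members, 11 windows in all, and for none of Pdp1. Motifs were sought on both strands, and the matches shown do not overlap. The core nuclear receptor element AGGTCA, the FOXO site TGTTTAC and the TATA box TATAAA occurred in 0 of the 11 windows, beside 14%, 3.17% and 12.4% of all 32851 promoter windows. CCAAT occurred in 5 of the 11 windows, beside 33.8% of all windows, and the GC box GGGCGG in 6 of the 11, beside 32.7%. The E-box occurred in 2 of the 11, beside 6.02% of all windows: for Pdk2, 126 bases before the start, and for Pdp2. Pdk4 has 1 CCAAT box, 131 bases before the start, and Pdk2 has 3. The Pdha1 window holds none of these motifs, but that of Pdhb, not shown and also highest in AAC, holds CCAAT and GC boxes. The windows therefore do not separate members low in AAC from members high in AAC. The Pdk4 window holds 6 CG dinucleotides, the median of all windows, while the windows of Pdk2 and Pdha1 shown here hold 19 and 15. These are matches of letters, and a missing match says only that the letters are not in this window.

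Pdp1, the phosphatase that calcium stimulates in muscle mitochondria, read 11.92, 12.73 and 12.34. The order was the reverse of that of Pdk4, with AAC at the top and sham at the bottom, and all steps were larger than the probe SD. AAC lay above sham by 1.75-fold and above AAC + DAPA by 1.31-fold, and AAC + DAPA above sham by 1.34-fold. Of these, the step from sham to AAC alone passed 1.5-fold.

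Pdp2, the isoform that does not need calcium, had the value 7.16 on all 3 arrays. Such equality is frequent in the deposited table, where 14.9% of genes carry the same value on all 3 arrays and 26.0% on sham and AAC. Pdk3 was equal on sham and AAC, and Pdhx on AAC and AAC + DAPA, where 24.9% of genes were equal. How equal values arose is not stated in the sources used here, and a difference of 0 therefore does not show the precision of these values.

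Pdha1, which encodes the alpha subunit that the kinases phosphorylate, read 16.34, 16.98 and 16.38. AAC was above both other arrays, which differed by 0.04. Its excess in AAC was 1.56-fold over sham and 1.52-fold over AAC + DAPA, both close to the threshold. With each array centred on its median, the differences were 0.58 and -0.53, under 1.5-fold in both comparisons. Pdha1 is X-linked. Of 798 X-linked genes on the arrays, 3.76% were up, Pdha1 among them, and 8.02% down in AAC vs. sham, beside 4.88% and 4.98% of all genes. In AAC + DAPA vs. AAC 8.52% were up and 2.76% down, beside 4.16% and 4.18%. In both comparisons the calls of X-linked genes thus leaned in the direction opposite to that of Pdha1. The part of the sex difference between arrays was not tested, for Pdha1 or for genes on other chromosomes such as Pdk4 and Pdp1.

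The other subunit genes lay within 1.5-fold in all 3 comparisons. Pdhb, the beta subunit that completes the decarboxylating component, read 18.51, 18.60 and 18.43 in sham, AAC and AAC + DAPA, a range of 0.17. Dlat, the acetyltransferase core that carries lipoic acid, read 16.64, 16.36 and 16.47. Pdhx, which anchors the dihydrolipoamide dehydrogenase to the core, read 10.33, 10.56 and 10.56. None of these genes differed beyond the probe SD in AAC vs. sham or in AAC + DAPA vs. AAC, and Pdhx exceeded it against sham, at 0.23.

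Of the 4 subunit genes, Pdha1 alone thus passed 1.5-fold in any comparison. Over the set, the AAC array held the highest value for 3 members (Pdp1, Pdha1 and Pdhb) and the lowest for 3 (Pdk2, Pdk4 and Dlat), beside 26.7% and 24.7% of all genes. For Pdhb this place is not stable, since with quantile normalization it differed by -0.08 for AAC minus sham and 0.02 for AAC + DAPA minus AAC, which made AAC its lowest array. In AAC minus sham 4 of the 10 members (Pdk2, Pdk4, Pdp1 and Pdha1) went past the probe SD, beside 25.8% of all genes. In AAC + DAPA minus AAC 5 did, the same 4 and Pdk3, beside 29.6%. Against sham it was 5 in AAC + DAPA (Pdk1, Pdk3, Pdk4, Pdp1 and Pdhx), beside 32.6%.

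**Figure D2:**
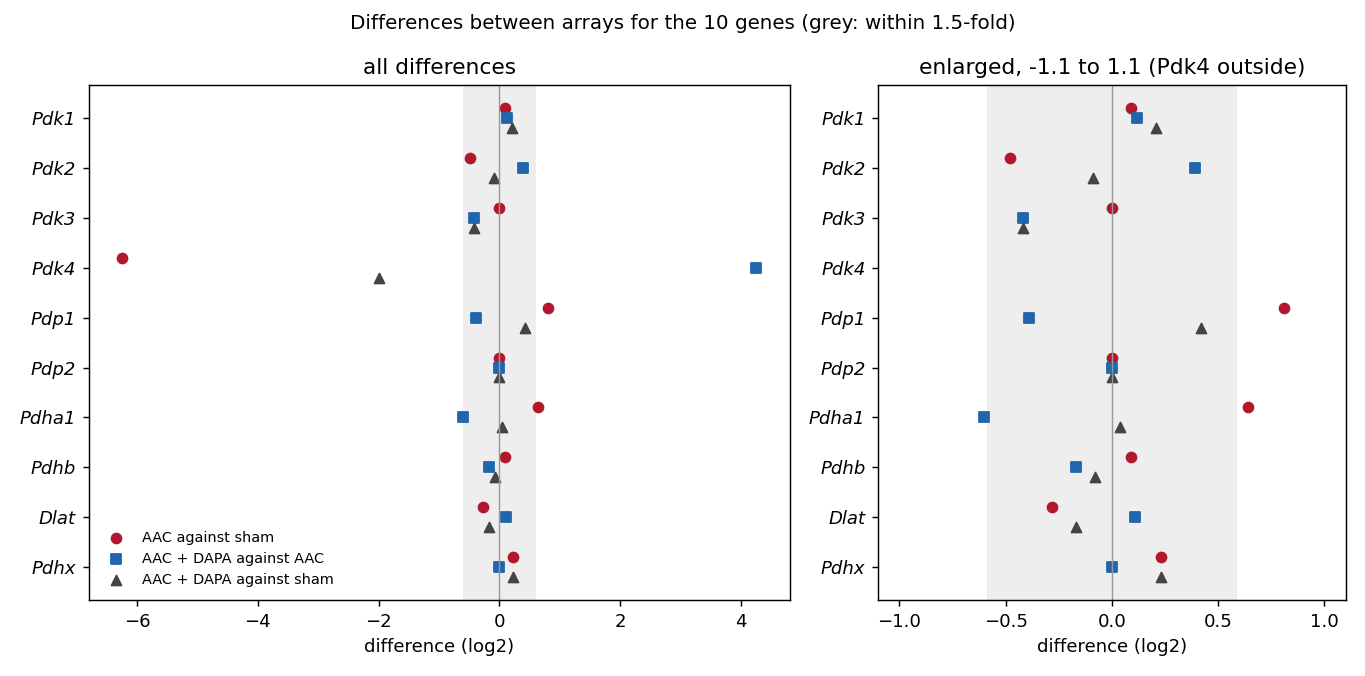
Log2 differences of the 10 genes (horizontal axes) for AAC vs. sham (circles), AAC + DAPA vs. AAC (squares) and AAC + DAPA vs. sham (triangles), with all values on the left and the range around 0 enlarged on the right, where Pdk4 falls outside. The grey band is the range within 1.5-fold: Pdk4 lies outside it in all comparisons (-6.24, 4.24 and -2.00), Pdp1 in the first (0.81) and Pdha1 in the first and second (0.64 and -0.60).

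Members at 16 or more on the log2 scale are beyond the top of a scanner image of 16 bits. The highest deposited value was 19.93, 3 members (Pdha1, Pdhb and Dlat) exceeded 16 on each array, and 1.17% of the sham probes did. The deposited scale is therefore not that of the scanner, its relation to it was not stated, and every fold stands on the deposited scale.

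Genes around the complex were described by 7 lists of 72 genes, of which 64 were measured. In AAC vs. sham 4 of the 64 were up (6.25%, beside 4.88% of all genes) and 7 down (10.9%, beside 4.98%). With AAC + DAPA vs. AAC 4 were up (6.25%, beside 4.16%) and 1 was down (1.56%, beside 4.18%). Against sham, AAC + DAPA had 4 up (6.25%, beside 3.22%) and 5 down (7.81%, beside 3.38%). Dld, the dihydrolipoamide dehydrogenase that the complex shares with its relatives, read 17.35, 17.78 and 17.46, and Pdpr, the regulatory subunit of the phosphatase, 9.88, 9.93 and 9.54. Neither passed 1.5-fold in any comparison. Dld, like Pdha1, was highest in AAC, beyond the probe SD.

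The related 2-oxoacid dehydrogenase complexes, which are built on the same plan, differed most upward in AAC. Of 9 genes, 4 were up and 0 down in AAC vs. sham, with a list median of 0.53 (log2), the value of Bckdha, beside 4.88% and 0.00 for all genes. Bckdhb, the beta subunit of the branched-chain complex, read 11.42, 12.75 and 11.90, with AAC 2.51-fold over sham and 1.80-fold over AAC + DAPA. Ppm1k, the phosphatase that activates the branched-chain complex, read 12.38, 13.61 and 13.44, so that AAC and AAC + DAPA lay 2.35-fold and 2.08-fold over sham. Its counterpart Bckdk, the inhibiting kinase of that complex, read 11.32 on all 3 arrays. Of the 3 phosphatase genes of both complexes, Pdp1 and Ppm1k thus stood above sham in AAC, and Pdp2 had 1 value on all arrays. Of the kinase genes of both complexes, Pdk4 alone passed 1.5-fold. Dbt, the core of the branched-chain complex, was 1.56-fold higher in AAC (0.58 with the arrays centred on their medians, under 1.5-fold, which left 3 of the 9 up), and Ogdhl, an isoform of 2-oxoglutarate dehydrogenase, 2.23-fold. Ogdh and Dlst of the main 2-oxoglutarate complex differed by -0.33 and -0.48 in AAC minus sham, within 1.5-fold. In AAC + DAPA vs. AAC 0 of the 9 were higher and 1 was lower, beside 4.16% and 4.18% of all genes. Against sham 2 were higher, Ppm1k and Ogdhl, beside 3.22%.

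Of 8 measured genes for the supply and other fates of pyruvate, 0 were higher and 1 was lower in AAC vs. sham, beside 4.88% and 4.98% of all genes. In AAC + DAPA vs. AAC 1 was higher and 0 were lower, beside 4.16% and 4.18%. Against sham 0 were higher and 2 lower in AAC + DAPA, beside 3.22% and 3.38%. Gpt2, the mitochondrial alanine aminotransferase that interconverts pyruvate and alanine, read 8.11, 6.82 and 7.50, with AAC 2.45-fold under sham and 1.60-fold under AAC + DAPA, and AAC + DAPA 1.53-fold under sham. It had the order of Pdk4. Ldha, the muscle form of lactate dehydrogenase, read 16.35, 15.97 and 15.72, with AAC + DAPA 1.55-fold under sham. Mpc1, a subunit of the carrier that brings pyruvate into mitochondria, read 17.48, 17.62 and 17.71, within 1.5-fold throughout.

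The citric acid cycle, which takes up the acetyl-CoA, showed no gene past 1.5-fold. All 14 measured genes stayed within it in each of the 3 comparisons, beside 9.86% of all genes past it in AAC vs. sham, with list medians of -0.035, 0.00 and -0.03. The widest difference was that of Suclg1, a subunit of succinyl-CoA ligase, at 13.82, 13.35 and 13.80. Of 9 measured genes for lipoic acid and thiamine, the cofactors of the complex, Slc19a3 alone passed, a thiamine transporter that read 4.23 in sham and AAC and 5.29 in AAC + DAPA. These are dim signals, below the median of the probes in sham and AAC (5.24 and 5.30), and the filter at the median level left 0 genes of this list past the threshold. Of 6 measured genes of mitochondrial calcium uptake, 0 passed 1.5-fold in any comparison, and Letm1 came nearest at -0.55 in AAC minus sham. With the arrays centred on their medians Letm1 was at -0.61, past 1.5-fold, which made 1 of the 6 lower in AAC.

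Regulators known for the Pdk genes were lower in AAC for 6 of 15 measured genes and higher for 0, with a list median of -0.34, the value of Klf15, beside 4.98% and 0.00 for all genes. The 6 were Ppargc1a, Ppara, Ppargc1b, Rxrg, Rxra and Esrrg, all of them nuclear receptors or their coactivators. In AAC + DAPA vs. AAC 2 were higher, beside 4.16% of all genes. These were the coactivator gene Ppargc1b (8.66, 7.84 and 8.70 in sham, AAC and AAC + DAPA) and the forkhead factor gene Foxo3 (5.61, 5.51 and 6.20). Against sham, 1 was higher in AAC + DAPA, Foxo3, and 3 were lower, Ppara, Rxra and Ppargc1a, beside 3.22% and 3.38% of all genes. Ppargc1b thus had the low AAC value of Pdk4 with both other arrays level. Rxrg (12.34, 11.69 and 12.01) and Esrrg (7.97, 7.37 and 7.82) had the order of Pdk4, within 1.5-fold in AAC + DAPA vs. AAC. Klf15 (7.97, 7.63 and 8.04) was also lowest in AAC, within 1.5-fold throughout. Ppara, at 10.99, 9.89 and 9.62, and Ppargc1a, at 17.18, 15.58 and 15.47, did not have the higher AAC + DAPA value that Pdk4 had. Nor did Rxra, at 7.64, 7.04 and 7.04. Foxo1 (6.45, 6.37 and 6.48) and the glucocorticoid receptor gene Nr3c1 (7.02, 7.05 and 7.02) differed by less than the probe SD in all comparisons.

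**Figure D3:**
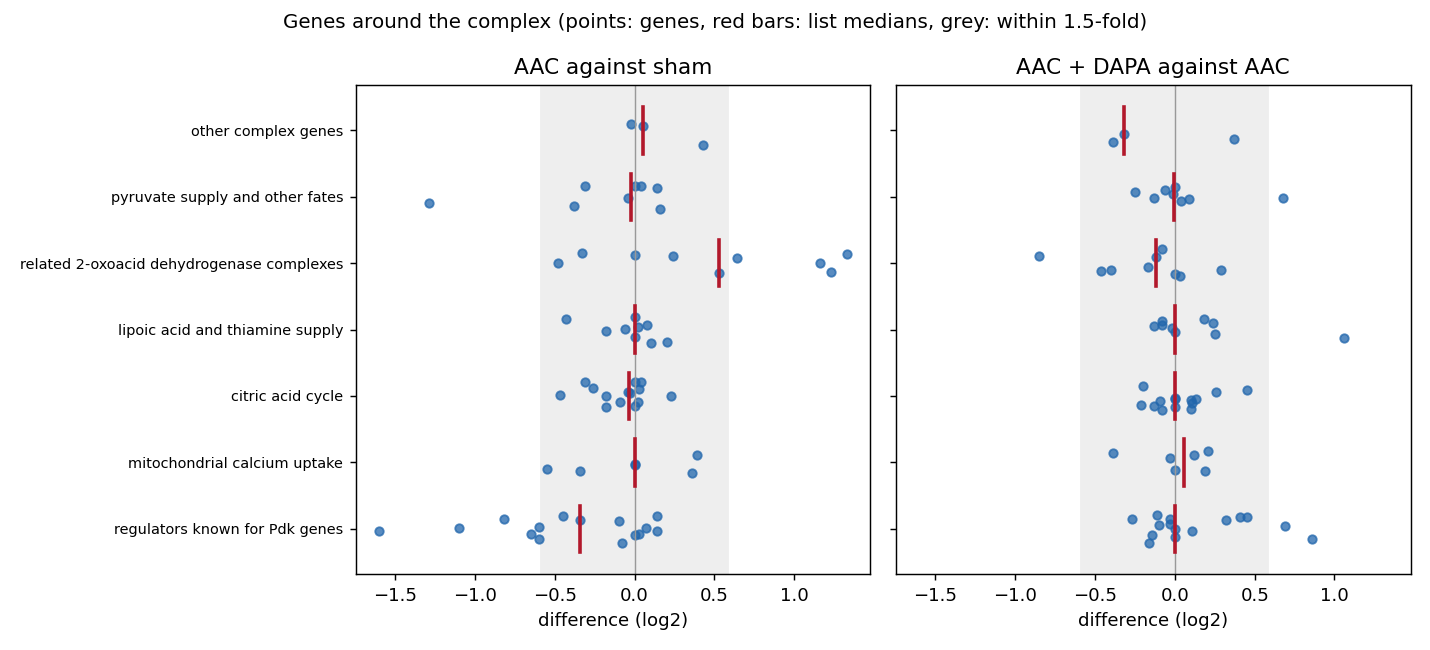
Log2 differences (horizontal axes) of the 64 measured genes in 7 lists around the complex, for AAC vs. sham on the left and AAC + DAPA vs. AAC on the right. Points are genes, shifted up and down at random for legibility, red bars are list medians and the grey band is the range within 1.5-fold: the related dehydrogenase complexes have their median at 0.53 on the left, the regulators at -0.34, and all 14 citric acid cycle genes lie within the band.

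The genes most like Pdk4 were sought by the distance between genes in the pair of log2 differences AAC minus sham and AAC + DAPA minus AAC. Over 3 arrays this is a description and says nothing of shared control. The 5 nearest were Acta2 (smooth muscle actin, at a distance of 2.44), Ucp3 (3.27), 2210407C18Rik (3.46), the clock factor gene Arntl (3.74) and the muscle fructose bisphosphatase gene Fbp2 (4.01). The distance of Pdk4 from no difference at all was 7.54, so even the nearest gene was far from it. Ucp3, at 9.54, 6.57 and 10.70 in sham, AAC and AAC + DAPA, ended above sham by 1.16 on the log2 scale, whereas Pdk4 ended below it. Acta2, 2210407C18Rik, Arntl and Fbp2 had the same order as Pdk4. Fbp2 read 10.80, 7.66 and 9.35, with -1.45 for AAC + DAPA minus sham. Arntl, at 9.90, 5.41 and 6.34, is among the clock genes that set the sham array apart, and the part of the hour of sampling in the Pdk4 values was not tested.

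**Figure D4:**
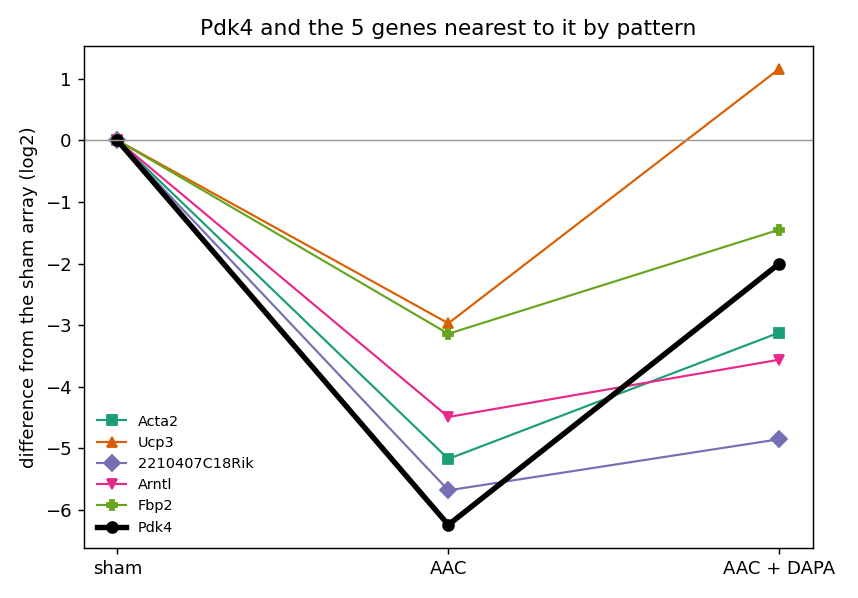
Difference from the sham array (vertical axis, log2) on the sham, AAC and AAC + DAPA arrays (horizontal axis) for Pdk4 (thick black line) and the 5 genes nearest to it by pattern. Pdk4 reaches -6.24 in AAC and -2.00 in AAC + DAPA, and Ucp3 is the gene that ends above sham, at 1.16.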

How the data were processed

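Heart RNA was measured on 3 Affymetrix arrays, 1 per group. The authors deposited log2 values, 1 per probe and array, already normalized by a method that the sources leave unnamed. Affymetrix Expression Console is named in the submitters' processing notes. The study names a human array, whereas the probes name mouse genes. Groups came from the treatment labels, and 0 columns lacked a sample.

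Of 22206 probes, 19572 name 1 gene and 2634 none. A gene is the mean over its probes (19505 genes). Genes were called from 1.5-fold, the study's threshold, with no filter on low values. With 1 array per group no test was run, and the number of arrays limits the precision. The members, lists and rules were chosen with earlier results of these data known. All members were named, with list genes past 1.5-fold, the 5 genes nearest to Pdk4, and list medians. Dld, Pdpr, Mpc1, Suclg1, Letm1, Bckdk, Ogdh, Dlst, Hif1a, Foxo1 and Nr3c1 were added for their roles or as examples after their values were seen. Promoter letters are from RefSeq (GRCm38.p6).

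Alternatives were array medians set equal, quantile normalization, the brightest probe of a gene in place of the mean, filters at the 25th percentile and at the median level, a 2-fold threshold, and leaving out the X and Y chromosomes. The counting was tested on simulated data. Python 3.11.15, numpy 2.4.6, pandas 2.3.3 and matplotlib 3.10.9 were used.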

Additional observations from a re-analysis of the deposited data

How the results depend on the processing

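Only centring of the arrays and quantile normalization could change the log2 differences of the members. Each member has 1 probe and the level filters only leave genes out, so the other settings returned the same values. Centring shifts every gene alike, by -0.06 in AAC minus sham, 0.07 in AAC + DAPA minus AAC and 0.01 in AAC + DAPA minus sham. These shifts are smaller than the spread between probes, so quantile normalization alone could have moved a difference past that spread. All 144 recomputed differences, among them those of Pdk4, moved by less than the spread between probes. With quantile normalization 2 changed sign, those of Pdhb in AAC minus sham (from 0.09 to -0.08) and in AAC + DAPA minus AAC (from -0.17 to 0.02). The 5 genes nearest to Pdk4 were shared by all settings in which they were recomputed. Centring cannot change these distances, the filters only drop genes, and the brightest probe matters only for genes with several probes. For genes with 1 probe, quantile normalization was thus the setting that could change the distances. Pdk3 fell below the filters at the 25th percentile and at the median, which therefore gave no value for it. In AAC + DAPA vs. AAC the count of members past the threshold dropped from 2 to 1, with Pdk4 left, after centring of the arrays, at 2-fold, and without the X and Y chromosomes, the last by leaving out the X-linked Pdha1. In AAC vs. sham it dropped from 3 to 1 at 2-fold. It was 2 after centring of the arrays and without the X and Y chromosomes, with Pdk4 and Pdp1 left. Of the 64 genes around the complex, 6 passed 2-fold in AAC vs. sham in place of 11 at 1.5-fold, 1 in place of 5 in AAC + DAPA vs. AAC, and 4 in place of 9 in AAC + DAPA vs. sham. Of all genes 520, 389 and 336 passed 2-fold in these comparisons, in place of 1924, 1626 and 1288, and 1054 passed 1.5-fold in AAC + DAPA vs. AAC among genes above the median level. Of 147 recomputed counts for single lists, 10 moved, either by over 1.5 times or to or from a count of 0. Centring moved the share of higher genes among all genes called from 49.5% to 39.8% in AAC vs. sham and from 49.9% to 63.5% in AAC + DAPA vs. AAC, while the median of all genes shifted by -0.06 and 0.07. No paired analysis was possible because each group has 1 array. Pdk3 was near the dim end of every array, which limits what its values can show.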
